A study of Mus musculus with 20 samples.

Results

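The liver releases hormone-like proteins, called hepatokines, and secreted inhibitors of lipases. The transcripts of 9 such proteins were examined: Fgf21, Angptl4, Angptl8, Gdf15, Ahsg, Fetub, Lect2, Igfbp2 and Fst. They were found by gene symbol among the probe sets that the array platform's gene table gives to exactly 1 gene. This gave 10 probe sets of 8 genes, out of 34945 probe sets of 18193 genes, and no listed probe set carried the symbol Gdf15, which was not analysed here. The livers came from 20 male C57BL/6J mice, 8 weeks old, killed on day 30 after a fast of 16 h. A diet with 45 kcal% fat was fed for 4 weeks. In 10 mice it held 0.02% of the maple syrup extract that the labels call MSXH (the MSXH mice), and in the other 10 it did not (the HFD mice). The groups thus share the strain, the sex, the high-fat diet and the fast. The study's design also names a low-fat group and a group with more extract, which were not analysed here, so that no level can be set against mice on a low-fat diet. Each mouse gave 1 array, and the number of mice limits the precision.

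In fasting, the nuclear receptor PPARA switches on Fgf21, a hormone that signals through FGF receptors with the coreceptor beta-klotho, and Angptl4, an inhibitor of lipoprotein lipase. Feeding and insulin switch on Angptl8, whose secreted protein takes part in holding back lipoprotein lipase in muscle and heart. The fetuins (Ahsg and Fetub) are abundant plasma glycoproteins that have been linked to insulin resistance, LECT2 is a secreted protein linked to insulin resistance in muscle, IGFBP2 binds insulin-like growth factors, and follistatin (Fst) binds and blocks activins.

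The deposited values are on a log scale whose base is not stated, and they span 5.1733 to 15.0055. Arrays differ very little from each other, with a median SD per probe set of 1.07e-05 and an SD above 0.1 for 44 of 45101. Differences are therefore given as standardized differences, the MSXH mean minus the HFD mean over the pooled SD within groups, with 95% confidence intervals, and not as folds of RNA. All 6 hepatocyte markers examined, Alb and Ttr among them, lay above the array median on every array. Muscle transcripts set 2 MSXH arrays apart. The fast myosin transcript Myh1 read 12.47 in MSXH 4 and 10.79 in MSXH 6, and no more than 6.23 on the other 18 arrays. Not every muscle marker followed. MSXH 6 lay at -0.65 for Ckm and -0.49 for Myh4, in pooled SDs from the mean of all mice, and MSXH 4 at 2.28 and 1.55. The summed level of the 8 muscle markers, none of them at 0, ran from 50.758 to 70.577 in MSXH and from 50.749 to 51.538 in HFD. Differences were also computed without these 2 arrays. Muscle markers still differed then. Of the 8, 6 had a higher and 2 a lower mean in MSXH, with a median of 0.53, against 0.07 over all genes. Mylpf stood at 1.86 (unadjusted limma p 0.000931) and Tnnt3 at -1.21 (0.0185). The part of muscle RNA in any difference was not tested. In bulk liver, fewer cells of a type and less RNA per cell cannot be told apart.

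Among the 8 genes measured, Angptl8 was the one furthest apart between the groups, with a higher mean level in MSXH. Fetub, Igfbp2 and Angptl4 had lower means in MSXH, and Fgf21, Lect2, Fst and Ahsg lay within 0.28 pooled SDs of equality. None of the 8 passed an adjusted p of 0.05 (limma over 18193 genes, Benjamini-Hochberg), and among all genes tested 0, or 0% of those tested, did so, while 1982 had an unadjusted p under 0.05. At an adjusted p of 0.10 stood 0.066% of all genes and none of the 8. At an unadjusted p under 0.05 stood 2 of the 8, Angptl8 higher and Fetub lower, against 10.9% of all genes (6.58% higher and 4.31% lower in MSXH). Of the 8, 3 had a higher mean in MSXH, against 54.7% of all genes. The median standardized difference was -0.24 over the 8 and 0.07 over all genes. Scaling matters for directions in this table. Among all genes at that unadjusted p, the share with the higher mean in MSXH was 60.4% in the deposited values, 2.27% after quantile normalization and 9.52% after centring each array on its median. Without MSXH 4 and 6 those shares were 60.9%, 61.4% and 65.3%. Over all genes, a lower mean in MSXH was found for 45.3% in the deposited values, for 97.2% after centring and for 92.8% after quantile normalization, with median standardized differences of -0.66 and -0.55 under these scalings. A negative value under a scaling therefore says little about a gene, and each is to be read against those medians. The adjusted p values of the 8 ran from 0.311 to 0.894, and those of the whole table went down to 0.0728.

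**Figure D1:**
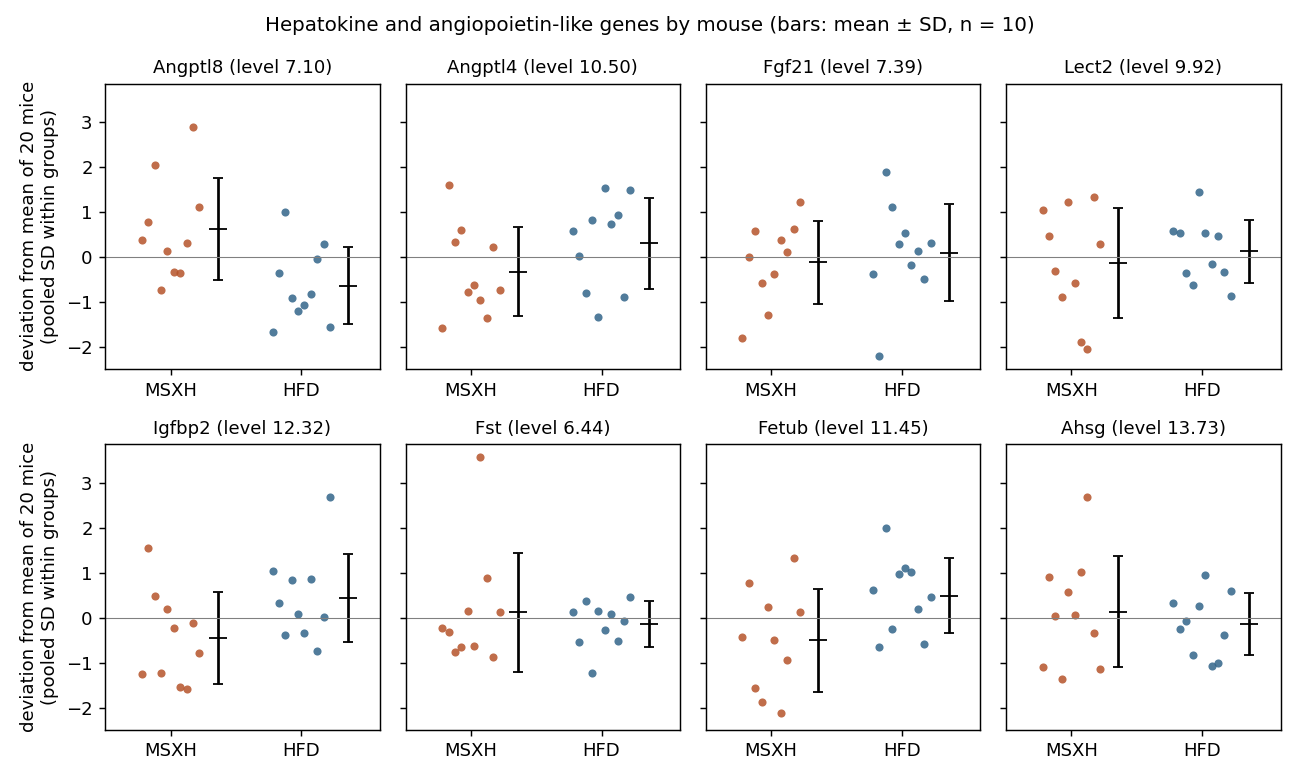
Level of each gene in each mouse, as the deviation from the mean of all 20 mice in pooled SDs within groups (y axis), for MSXH and HFD (x axis; points run from mouse 1 to mouse 10 within a group, bars give mean ± SD, n = 10). The groups overlap for every gene; MSXH 9 is the highest point for Angptl8, at 2.90, and MSXH 7 for Fst, at 3.57.

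Angptl8 (gene ID 624219, chromosome 9, 21835510 to 21837347 in GRCm38.p6) encodes a secreted protein of the liver and fat that takes part in the control of lipoprotein lipase. In MSXH its lowest, median and highest levels were 7.1000, 7.1019 and 7.1061, against 7.0985, 7.0998 and 7.1029 in HFD. All 10 MSXH mice lay above the HFD median, 3 of them above every HFD mouse, and the ranges overlapped. The standardized difference was 1.26 (interval 0.28 to 2.21), with the MSXH mouse higher in 84 of the 100 possible pairings across groups, an unadjusted limma p of 0.0098 and an adjusted p of 0.311. MSXH 9 and MSXH 3 were the highest of all mice, at 7.1061 and 7.1047, and HFD 1 and HFD 10 the lowest, at 7.0985 and 7.0987. Without MSXH 4 and 6, which were the lowest and among the lower MSXH mice at 7.1000 and 7.1007, the difference was 1.62 (unadjusted limma p 0.00281, adjusted p 0.276). It was 1.09 after centring and 0.93 after quantile normalization. The mean of the array medians differed by 0.000162 between MSXH and HFD, and that of Angptl8 by 0.00212.

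Upstream of their start sites, Angptl8 and Fgf21 carry the same 8 bases, and their promoters are shown to place them. The 250 bases before each start, from RefSeq (GRCm38.p6), are written 5′ to 3′ on the strand of the gene, with capitals for the match to TGATGNAA or its reverse complement, the composite element at which ATF4 and C/EBP factors bind in amino acid response genes.
Angptl8, chr9:21835260-21835509, plus strand: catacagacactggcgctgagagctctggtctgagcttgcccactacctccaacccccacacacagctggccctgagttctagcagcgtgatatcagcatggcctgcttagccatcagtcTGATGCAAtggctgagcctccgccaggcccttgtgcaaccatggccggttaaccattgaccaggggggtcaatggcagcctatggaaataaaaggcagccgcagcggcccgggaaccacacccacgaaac
Fgf21, chr7:45615491-45615740, minus strand: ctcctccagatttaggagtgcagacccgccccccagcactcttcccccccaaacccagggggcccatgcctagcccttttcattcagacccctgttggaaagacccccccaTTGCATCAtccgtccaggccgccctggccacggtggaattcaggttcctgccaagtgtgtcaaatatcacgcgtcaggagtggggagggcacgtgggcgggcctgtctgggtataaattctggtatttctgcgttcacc
In Angptl8 the match lies on the strand of the gene, at -130 to -123 from the start, and in Fgf21 on the other strand, at -139 to -132, reading TGATGCAA in both. Of 32851 windows of this length in the table, 3.45% held a match on either strand. Windows were found for 6 of the 8 genes, the exceptions being Angptl4 and Fst. Among those 6, only Angptl8 and Fgf21 held that match. The Fgf21 window also held the E-box CACGTG at -50 to -45, which Igfbp2 held at -142 to -137 (6.02% of all windows), and TATAAA at -28 to -23, which Fetub held at -31 to -26 (12.4% of all windows, both strands searched). The direct repeat of AGGTCA with 1 free base between the copies, of the kind PPARA binds with RXR, was found in none of the windows of those 6 genes and in 0.0335% of all windows. A match is a description of these letters and not a site, and no match says only that these letters are not in the window. Over the 20 mice the levels of Angptl8 and Fgf21 had a Pearson r of 0.22 (permutation p 0.346, adjusted p 0.792 over 45 pairs).

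Angptl4 (gene ID 57875, chromosome 17, 33774900 to 33781575) is the member of the family that rises with fasting. Its brighter probe set gave lowest, median and highest levels of 10.50007, 10.50019 and 10.50049 in MSXH, against 10.50010, 10.50037 and 10.50048 in HFD. One MSXH mouse, MSXH 2, was the highest of all, and the other 9 lay below the HFD median. The standardized difference was -0.63 (interval -1.52 to 0.28; unadjusted limma p 0.169, adjusted p 0.627), and it was -0.93 under both scalings, with 8 arrays off the commonest value after quantile normalization. The other probe set, at a mean level of 5.84, lay under the array median on every array and stood at -0.01 (-0.88 to 0.87), with a rank correlation of 0.07 with the first over 20 mice (permutation p 0.771, adjusted over 2 genes 0.771). No relation between the 2 probe sets of Angptl4 was detectable in these mice.

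Fgf21 (gene ID 56636, chromosome 7, 45613890 to 45615490) varied most between mice. Its SD over the 20 arrays, 0.0174, was above that of 99.5% of the probe sets with 1 gene. Levels in MSXH were 7.362, 7.395 and 7.416 (lowest, median, highest), against 7.355, 7.398 and 7.427 in HFD. The groups overlapped almost wholly, and the lowest mice were MSXH 1 at -1.79 and HFD 2 at -2.19 pooled SDs from the mean of all mice. The standardized difference was -0.22 (interval -1.09 to 0.67; unadjusted limma p 0.628, adjusted p 0.894), and -0.22 under both scalings.

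Ahsg, the gene of fetuin-A (gene ID 11625, 22892015 to 22899451), and Fetub, that of fetuin-B (gene ID 59083, 22918382 to 22939768), lie on chromosome 16, 18930 bases apart with 1 annotated gene between them. Fetub had levels of 11.452672, 11.452732 and 11.452796 in MSXH (lowest, median, highest), against 11.452724, 11.452768 and 11.452820 in HFD. Of the MSXH mice, 4 lay below every HFD mouse and 2 above the HFD median. The standardized difference was -0.99 (interval -1.91 to -0.04), with an unadjusted limma p of 0.0372 and an adjusted p of 0.425. It was -0.78 after centring but 0.15 after quantile normalization, where 7 arrays differed from the commonest value, and -0.82 without MSXH 4 and 6 (unadjusted limma p 0.0972). With 1 mouse left out the unadjusted limma p lay between 0.0103 and 0.0744, and it was above 0.05 without MSXH 3, 4, 7 or 8 and without HFD 1, 3, 5, 6 or 7. Ahsg, at a mean of 13.73, had the smallest spread of the 8, with an SD of 1.99e-06, above that of 2.22% of the probe sets. Its standardized difference was 0.28 (-0.60 to 1.16; unadjusted limma p 0.53, adjusted p 0.853) and -0.66 after centring, and after quantile normalization all arrays had the same value. The levels of the neighbouring fetuin genes had a Pearson r of -0.03 and a Spearman rho of 0.07 over the 20 mice (permutation p 0.897 and 0.782, adjusted p 0.957 and 0.889).

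Lect2 (gene ID 16841, chromosome 13, 56529734 to 56548559) had levels of 9.9100, 9.9175 and 9.9226 in MSXH (lowest, median, highest), against 9.9144, 9.9182 and 9.9230 in HFD. MSXH 7 and MSXH 8 were the lowest of all mice, at 9.9106 and 9.9100, and MSXH 4, at 9.9143, also lay below every HFD mouse. The SD was 0.00454 in MSXH and 0.00261 in HFD, a difference that was not tested. The standardized difference was -0.26 (interval -1.14 to 0.62; unadjusted limma p 0.558, adjusted p 0.867), and -0.30 and -0.53 after centring and quantile normalization.

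Fst (gene ID 14313, also on chromosome 13, 114452262 to 114458989) was measured by 2 probe sets, both under the array median on every array. By the first, at a mean level of 6.44, its lowest, median and highest levels were 6.43832, 6.43877 and 6.44179 in MSXH, against 6.43803, 6.43899 and 6.43936 in HFD. By the second, at 6.20, they were 6.1959, 6.1978 and 6.2112 in MSXH, against 6.1962, 6.1985 and 6.2005 in HFD. Both probe sets were highest in MSXH 7 and next highest in MSXH 8, the mice lowest for Lect2, and both had a lower median in MSXH. The standardized differences were 0.27 (-0.62 to 1.15) and 0.22 (-0.67 to 1.09), with unadjusted limma p values of 0.548 and 0.627 and adjusted p values of 0.862 and 0.888. Without MSXH 7 they were -0.21 (-1.11 to 0.70) and -0.30 (-1.20 to 0.61), so 1 mouse set the sign. The probe sets followed each other over the 20 mice, with a Pearson r of 0.91 and a Spearman rho of 0.56 (permutation p 4e-05 and 0.0111, adjusted over 2 genes 8e-05 and 0.0222), an r of 0.94 within MSXH and 0.59 within HFD, and 0.69 after dropping the 2 mice most distant from the median of the first probe set.

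Igfbp2 (gene ID 16008, chromosome 1, 72824480 to 72852474), whose protein carries insulin-like growth factors in plasma, had levels of 12.31522, 12.31541 and 12.31576 in MSXH (lowest, median, highest), against 12.31537, 12.31553 and 12.31596 in HFD. Of the MSXH mice, 5 lay below every HFD mouse, and HFD 10 was the highest of all. The standardized difference was -0.88 (interval -1.79 to 0.05; unadjusted limma p 0.0587, adjusted p 0.484), with the MSXH mouse higher in 26 of 100 pairs. With 1 mouse left out the unadjusted limma p lay between 0.0134 and 0.117, and it was under 0.05 without MSXH 2 or 3 and without HFD 3, 6 or 8. It was -0.78 without MSXH 4 and 6. After quantile normalization Igfbp2 had 1 value on all arrays but MSXH 4, so that scaling gives no measure of it.

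MSXH 7 and MSXH 8 lay far from the mean of all mice in several of these genes at once. In pooled SDs from the mean of all mice, MSXH 7 lay at 3.57 and 3.52 for the probe sets of Fst, -1.89 for Lect2, -2.11 for Fetub and -1.54 for Igfbp2. MSXH 8 lay at 0.90 and 1.36 for Fst, -2.04 for Lect2, -1.57 for Igfbp2 and 2.70 for Ahsg, where it was the highest of all mice. MSXH 7 and MSXH 8 were not the mice with the high Myh1 levels. Other mice also lay far out in more than 1 gene. HFD 10 lay at 2.68 for Igfbp2, -1.55 for Angptl8 and 1.49 for Angptl4, and HFD 3 at 2.00 for Fetub and 1.89 for Fgf21.

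**Figure D2:**
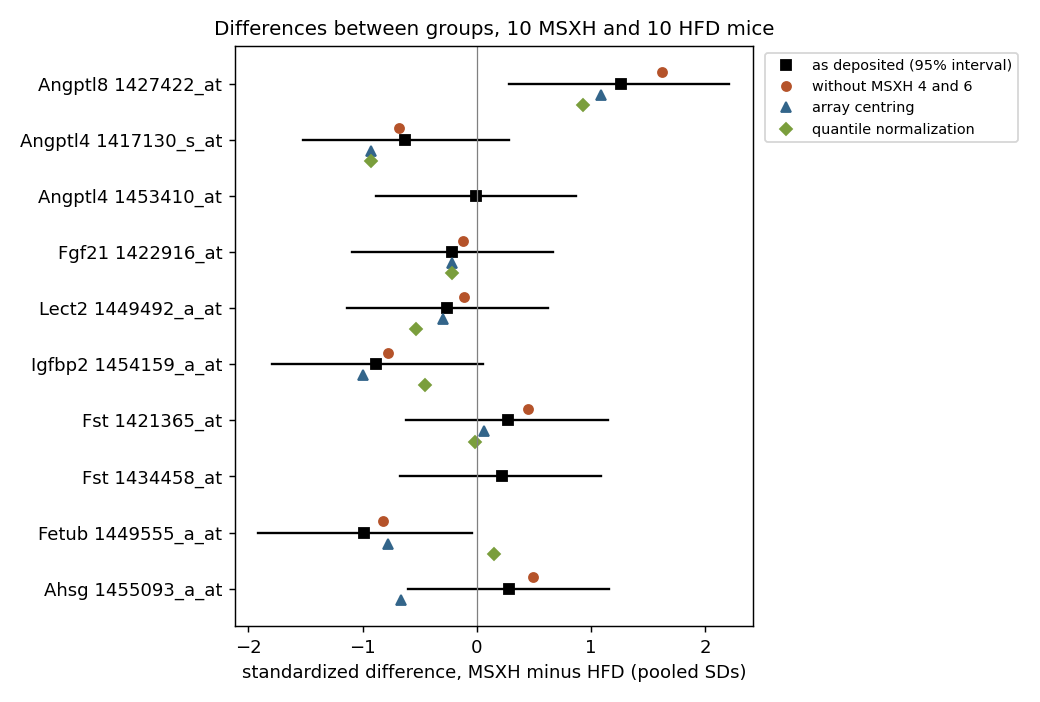
Standardized difference, MSXH minus HFD, in pooled SDs (x axis), for the 10 probe sets (y axis): squares and lines give the deposited values with 95% intervals (10 mice a group), and coloured marks the same gene without MSXH 4 and 6, after centring and after quantile normalization. The intervals of Angptl8 (0.28 to 2.21) and Fetub (-1.91 to -0.04) leave out 0; Fetub turns to 0.15 after quantile normalization and Ahsg to -0.66 after centring. The Igfbp2 mark after quantile normalization rests on 1 array.

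**Figure D3:**
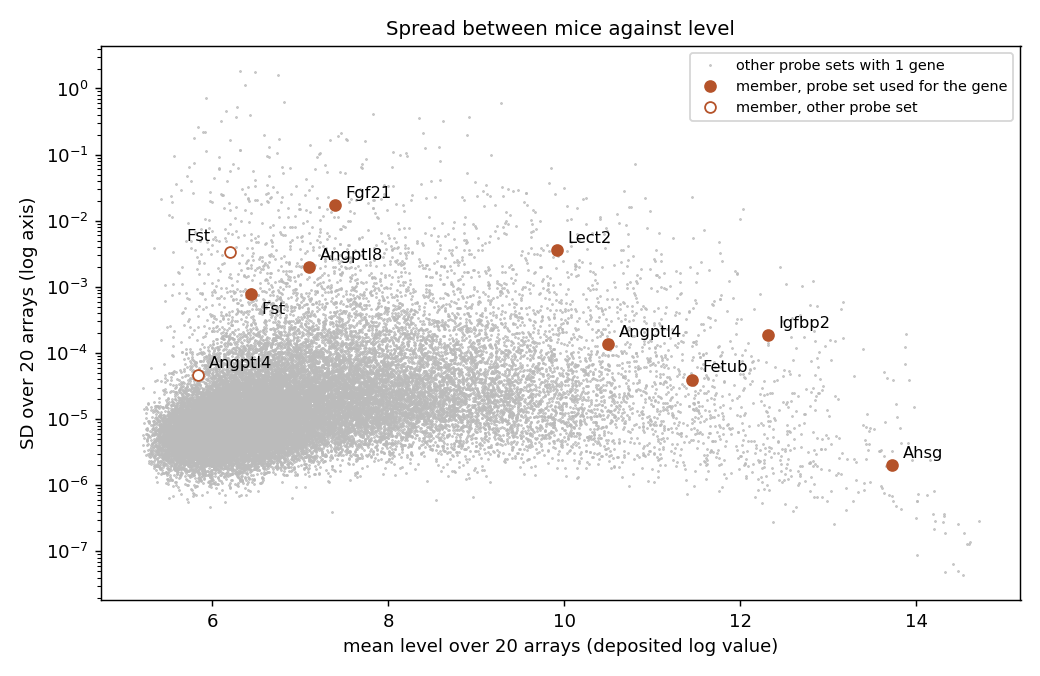
SD over the 20 arrays (y axis, log scale) against mean level (x axis, deposited log values) for all probe sets with 1 gene (grey), with the 10 probe sets of the 8 genes marked. Fgf21, at an SD of 0.0174, stands near the top of the cloud and Ahsg, at 1.99e-06, near its bottom.

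Ordered by spread, the genes ran from Fgf21 (0.0174) through Lect2 (0.00364), Angptl8 (0.00196), Fst (0.000771), Igfbp2 (0.000186), Angptl4 (0.000136) and Fetub (3.96e-05) to Ahsg (1.99e-06), as SDs of the deposited values over 20 mice. Apart from Ahsg, each of the 10 probe sets had an SD above that of at least 79.3% of the probe sets. The genes whose direction turned under a scaling of all 20 arrays were Fst, Fetub and Ahsg.

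The levels of the 8 genes were set against each other over the 20 mice (28 pairs), and in 17 further pairs against partner genes of the same pathways, chosen as known targets, regulators or ligands. None of these 45 correlations passed an adjusted p of 0.05 by permutation, by Pearson's r or by Spearman's rho, and 5 and 3 had an unadjusted p under 0.05. The closest pair was Angptl4 and Igfbp2, with r of 0.62 (permutation p 0.00328, adjusted p 0.148) and rho of 0.57 (0.0104, adjusted p 0.401). For this pair r was 0.73 within MSXH, 0.39 within HFD and 0.52 after dropping the 2 mice most distant from the median of Angptl4. Lect2 and Fetub followed, with r of 0.57 (permutation p 0.00903, adjusted p 0.203) and rho of 0.53 (0.0178, adjusted p 0.401), an r of 0.77 within MSXH, 0.11 within HFD and 0.39 after dropping the 2 mice most distant from the median of Lect2. Lect2 and Fst had an r of -0.48 (permutation p 0.0308, adjusted p 0.376) and a rho of -0.17 (0.481, adjusted p 0.86), and r was 0.11 without MSXH 7 and MSXH 8, the 2 mice most distant from the median of Lect2, so that relation rests on these mice.

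Fgf21 was paired with Cpt1a and Cyp4a14, which PPARA induces, and with Asns, Ddit3 and Trib3, which ATF4 induces. The 5 values of r lay between -0.03 and 0.18 (permutation p from 0.459 to 0.995). Asns, at a mean level of 6.47, lay under the array median on every array. Angptl4 had an r of 0.37 with Cyp4a14 (permutation p 0.106), 0.31 with Cpt1a (0.183), 0.30 with Pdk4 (0.201) and 0.04 with Plin2 (0.877), each with an adjusted p of at least 0.533. With Pdk4 the sign depended on the scaling, at -0.47 after centring (adjusted permutation p 0.154) and -0.55 after quantile normalization (0.362). After centring r was 0.81 with Cyp4a14, 0.89 with Cpt1a and 0.49 with Plin2. Angptl8 had an r of 0.48 with Mlxipl, the gene of the glucose-responsive factor ChREBP (permutation p 0.0334, adjusted p 0.376), a rho of 0.22 (0.36, adjusted p 0.86) and an r of 0.34 without the 2 mice farthest from its median. Its r was 0.19 with Srebf1 and 0.12 with Fasn, both of the insulin-driven program of fatty acid synthesis, and -0.05 with Pnpla3, a lipid droplet protein gene. Pnpla3, at a mean level of 6.17, also lay under the array median on every array.

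**Figure D4:**
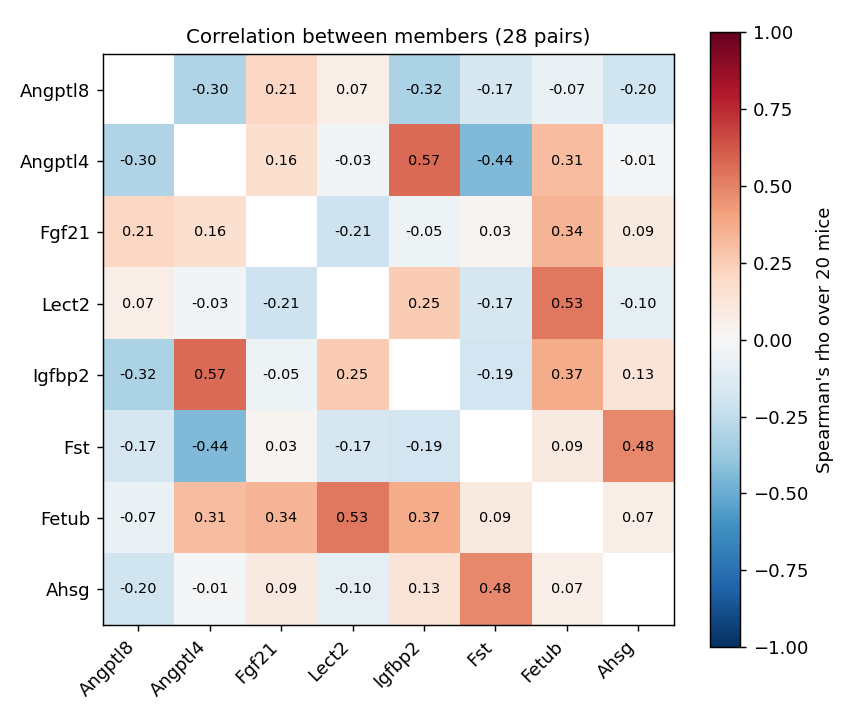
Spearman's rho over 20 mice for each of the 28 pairs of genes (colour and number in each cell; rows and columns are genes). The highest value is 0.57 for Angptl4 and Igfbp2, then 0.53 for Lect2 and Fetub, and none of the 28 passed an adjusted p of 0.05.

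Across all genes, those whose ranking of the 20 mice was most like that of each member were found by Spearman's rho, as a description. For Lect2 these were the dipeptidase gene Cndp2 (rho 0.95) and the cytochrome P450 gene Cyp1a2 (0.94), and 481 genes reached an absolute rho of 0.7, against 366 for Fetub, 53 for Angptl4, 45 for Fgf21, 43 for Igfbp2, 19 for Angptl8, and 11 each for Fst and Ahsg. For Fgf21 they were Hsp90aa1, a cytosolic chaperone gene (0.86; 0.83 within MSXH and 0.85 within HFD), and Ints11 (0.84). For Angptl4 they were Ehd3 (0.88) and Slc49a4 (0.86). Fetub ran opposite to Mkrn2 (-0.89) and Ggt6 (-0.88), and Igfbp2 opposite to the phosphodiesterase gene Pde7a (-0.80) and Zfp367 (-0.79). Angptl8 went with the ubiquitin ligase gene Hace1 (0.82) and against Ifitm5 (-0.80), whose own standardized differences were 1.72 and -2.22. Within groups these were weaker, with a rho of 0.62 in MSXH and 0.45 in HFD for Hace1, and of -0.58 in MSXH and -0.75 in HFD for Ifitm5. Fst went with Bhlha9 (0.85) and against the phosphatase gene Ptpra (-0.85), and Ahsg with Dnajc13 (0.79) and against Lhx4 (-0.77).

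The genes around these proteins, in 9 lists with 85 of 95 genes measured, gave 0 genes at an adjusted p of 0.05. At an unadjusted p under 0.05, 7 were higher and 5 lower in MSXH, or 14.1% of them, against 10.9% of all genes, and the median standardized difference was -0.01, against 0.07 over all genes.

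Of the insulin-like growth factors and their binding proteins, 7 of 10 had a lower mean in MSXH, against 45.3% of all genes, and the median was -0.17. Igfbp1, a secreted binding protein that fasting induces and insulin represses, stood at 12.005, 12.023 and 12.041 in MSXH (lowest, median, highest), against 12.011, 12.038 and 12.059 in HFD. Its standardized difference was -1.11 (interval -2.05 to -0.15; unadjusted limma p 0.0202, adjusted p 0.368), and it was -1.13 after centring, -1.18 after quantile normalization and -1.17 without MSXH 4 and 6. Igfbp3, the main carrier of IGF1 in plasma, had levels of 7.51606, 7.51720 and 7.51875 in MSXH, against 7.51676, 7.51813 and 7.51908 in HFD, with a standardized difference of -1.10 (-2.03 to -0.14; unadjusted limma p 0.0216, adjusted p 0.372), and -1.29 and -1.03 after centring and quantile normalization. Igfbp4 stood at 1.14 (0.18 to 2.08), turned to -0.58 after centring and had no value after quantile normalization. Igfbp1 and Igfbp2 had an r of 0.40 over the 20 mice (permutation p 0.0828, adjusted p 0.533), -0.26 within MSXH and 0.67 within HFD.

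Of the activins, their receptors and the relatives of follistatin, 4 of 10 had a higher and 6 a lower mean in MSXH, with a median of -0.18. Inha and Inhbb, the genes of the inhibin alpha and inhibin beta B subunits, stood at standardized differences of -1.18 (-2.12 to -0.21) and -1.01 (-1.93 to -0.06). They stood at -0.74 each after centring, against a median of -0.66 over all genes. After quantile normalization they stood at -0.76 and -0.56, against -0.55 over all genes. Inha, at a mean level of 6.29, lay under the array median on every array. Acvr1b, a type I activin receptor, stood at 1.07 (0.11 to 2.00) and turned to -0.06 after centring but not after quantile normalization (0.34). Inhbe, the activin E subunit that hepatocytes secrete, stood at 0.65 (-0.26 to 1.54), with 0.58 and 0.50 after centring and quantile normalization.

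Among receptors, Fgfr1 stood at 1.14 (0.17 to 2.07), turned under both scalings (-0.54 and -0.71 after centring and quantile normalization), and lay under the array median on every array, and Klb, the gene of beta-klotho, stood at -0.48 (-1.36 to 0.42). Among other angiopoietin-like genes, Angptl1 stood at 1.04 (0.09 to 1.97) and at -0.53 and -0.52 after centring and quantile normalization, and the 3 measured had a median of -0.02. Apoc2, the activator of lipoprotein lipase, had the smallest p of the lipase genes, at 0.90 (-0.04 to 1.81) and at -0.33 after centring. The median over the 7 measured was -0.09.

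Genes that insulin and carbohydrate induce had a higher mean in MSXH in 7 of 9, with a median of 0.51, against 0.07 over all genes. The median was -0.33 after centring and -0.18 after quantile normalization, against -0.66 and -0.55 over all genes. Srebf1, the gene of the insulin-driven activator of fatty acid synthesis, had levels of 8.3446, 8.3485 and 8.3524 in MSXH (lowest, median, highest), against 8.3432, 8.3469 and 8.3501 in HFD. Its standardized difference was 0.96 (0.02 to 1.88; unadjusted limma p 0.0411, adjusted p 0.437), and it was 0.88 and 0.77 after centring and quantile normalization. PPARA and its targets had a median of 0.01 over 9 genes, with none at an unadjusted p under 0.05 in the deposited values. Without MSXH 4 and 6 the median was -0.38, with 3 higher and 6 lower, against 0.07 over all genes. The smallest p belonged to Ehhadh, a peroxisomal beta-oxidation enzyme, at -0.74 (-1.64 to 0.18). Ehhadh stood at -0.95 after centring (unadjusted limma p 0.0385), against -0.66 over all genes. After quantile normalization its value rests on HFD 2 alone. Integrated stress response genes were split, 6 with a higher and 6 with a lower mean. Ppp1r15a, the phosphatase subunit that reverses eIF2 alpha phosphorylation, stood at -1.21 (-2.15 to -0.23). It stood at -0.75 and -0.31 after centring and quantile normalization, against -0.66 and -0.55 over all genes. The cystine transporter gene Slc7a11 stood at 1.02 (0.07 to 1.95) and turned under both scalings (-0.63 and -0.70). Slc7a11 lay under the array median on every array. The other hepatokine genes were split as well, 7 and 7, and Gpnmb, a transmembrane glycoprotein gene also expressed by macrophages, stood at 1.23 (0.25 to 2.18) and at -0.64 and -0.58 after centring and quantile normalization. Of the 6 macrophage and Kupffer cell markers, 5 had a higher mean in MSXH, with a median of 0.24. Without MSXH 4 and 6 all 6 were higher, with a median of 0.57. After centring 1 was higher and 5 lower, with a median of -0.27, against -0.66 over all genes. Their summed level ran from 51.478 to 51.501 in MSXH and from 51.478 to 51.495 in HFD. In that sum Marco, the marker of largest SD, weighs most. The part of these cells in the Gpnmb value was not tested. None of the genes named in these lists passed an adjusted p of 0.05.

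**Figure D5:**
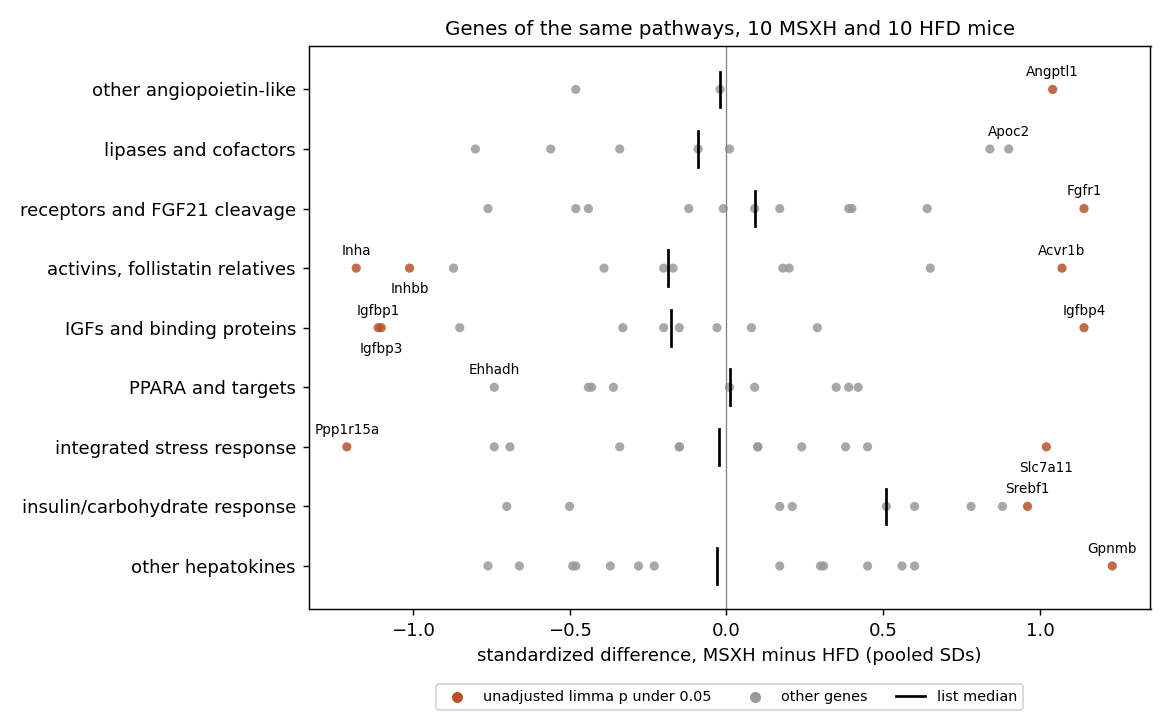
Standardized difference, MSXH minus HFD, in pooled SDs (x axis), for the 85 measured genes of the 9 pathway lists (y axis), with a black line at each list's median; orange points have an unadjusted limma p under 0.05. List medians lie between -0.18 and 0.51, and no gene passed an adjusted p of 0.05.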

How the data were processed

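Biotin-labelled RNA of each liver was put on Affymetrix 3' arrays, per the labels' protocols. The deposited values were taken as log2 levels from their range. How the authors made them, from scanner signal to summarized probe set, and the base of the logarithm were not given in the sources used here. They were not changed before the test. Of 45101 probe sets, the 9211 not listed in the platform's gene table, the 932 with several symbols and the 64 controls (some also in those classes) were left out. A gene was read from its probe set of highest mean. Gene IDs matched the GRCm38.p6 gene table for 34754 probe sets, changing 0 symbols.

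All 18193 genes were tested two-sided with limma 3.58.1 (R 4.3.3; lmFit and eBayes with trend, 18 residual degrees of freedom), with Benjamini-Hochberg adjustment, and the procedure was tested on simulated data. Intervals are noncentral t at 95%. Correlation p values are from 100000 permutations (numpy 2.4.6), adjusted over 45 pairs. The members, lists, partner genes and tests were chosen with earlier results of these data known. Of each list, the genes with an unadjusted p under 0.05 (at most 4), or else the 1 of smallest p, were to be named, with the 2 genes closest to each member; Klb, Inhbe and the markers named were added after their values were seen. Replicate numbers only name mice. Alternatives were other scalings, fits, tests and thresholds, other handling of probe sets, and leaving out arrays.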

Additional observations from a re-analysis of the deposited data

Results flagged for a closer look

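In 20 groups of 10 mice (10 probe sets in 2 groups), the gap between the most extreme mouse and its neighbour was divided by the range of the group and compared with Dixon's 95% critical value, which chance passes in about 1 of 20 groups. It was passed in 3. MSXH 7 was the highest MSXH mouse for Fst by both probe sets, with a gap of 0.602 of the range by the brighter and of 0.492 by the dimmer. HFD 10 was the highest HFD mouse for Igfbp2, with a gap of 0.478 of the range. Without HFD 10 the standardized difference of Igfbp2 was -0.74 (unadjusted limma p 0.117).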

How the results depend on the processing

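None of the 8 genes passed an adjusted p of 0.05 under any of the 15 alternatives or the 20 fits that left out 1 mouse. Alternatives that changed only the gene filter, the empirical Bayes step or the threshold cannot move the difference of any gene. Angptl8 kept its direction in all fits. It has 1 probe set, so other handling of probe sets could not move it either, and it stood at 1.26 in all these settings. Its standardized difference lay between 0.68 (the rank sum test, on its own scale of pair shares) and 1.98 (the replicate block, over the residual SD of that fit). Its unadjusted p lay between 0.00107 and 0.042, and its adjusted p between 0.229 and 1.0. Angptl4, Fgf21 and Lect2 kept their directions, and so did Igfbp2 outside quantile normalization, where its -0.45 rests on MSXH 4 alone. Fst turned to -0.02 after quantile normalization, to -0.08 by the rank sum test and to -0.21 without MSXH 7, and leaving out each mouse in turn gave -0.21 to 0.38; leaving MSXH 7 out of both probe sets of Fst was an alternative chosen after seeing the data. Fetub turned to 0.15 after quantile normalization, and to 0.31 with it and without MSXH 4 and 6. Ahsg turned to -0.66 after centring, and to -0.02 with it and without MSXH 4 and 6. After quantile normalization Ahsg, and without MSXH 4 and 6 Igfbp2 too, had 1 value on all arrays, so neither gave a difference, and the count of higher genes was not made there. Fst was left out by the filter on genes above the median gene. The cause of these turns was not tested. Leaving out 1 mouse moved the number of genes with a higher mean between 2 and 3. Over all genes, the number past an adjusted p of 0.05 was 0 in the deposited values, 1 when the probe sets of each gene were averaged, 4 by the rank sum test, 3 by a t statistic without empirical Bayes and 12 at an adjusted p of 0.10, and it ran from 0 to 3 when 1 mouse was left out (3 without HFD 3; 1 without MSXH 2, MSXH 3, HFD 6 or HFD 9). At an unadjusted p under 0.05 stood 1982 genes in the deposited values, 748 after quantile normalization, 210 after centring and 357 with centring and without MSXH 4 and 6. With the replicate number as a block, Angptl8 stood at 1.98 and 0 genes passed. That value is over the residual SD left by the block and not over the pooled SD within groups. Same-numbered mice correlated between -0.265 and 0.165, and 1 of 10 MSXH mice was closest to its own number, so no pairing was used. Of the 45 correlations, 9 passed by Pearson's r and 5 by Spearman's rho after centring, against 0 by both in the deposited values and without MSXH 4 and 6, and 0 of the 35 that had a value after quantile normalization. Centring takes 1 number off every gene of an array, and the medians of MSXH 4 and 6 were the highest.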

Other observations

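The marker lists of cell types a liver sample can hold were read for the same 20 mice, as mean deviations of their genes in pooled SDs. No marker passed an adjusted p of 0.05. The 8 skeletal muscle markers ran up to 3.25 in MSXH and 0.06 in HFD. The 4 adipocyte markers measured, of which Adipoq is one, ran up to 1.49 in MSXH and 0.81 in HFD, with a median standardized difference of -0.44. Adipoq lay at 2.47 in MSXH 4 and 3.39 in MSXH 6, the arrays with high Myh1, and Lep at -0.75 and 0.18. Without these arrays all 4 had a lower mean in MSXH, with a median of -0.78. With all 20 mice the median was -0.01 for 6 hepatocyte, 0.24 for 6 macrophage and Kupffer cell, -0.23 for 6 endothelial and 0.11 for 6 stellate cell markers. It was 0.33 for 4 lymphocyte, 0.86 for 3 neutrophil, 0.26 for 4 cholangiocyte, 0.67 for the 8 muscle and -0.08 for 3 pancreas markers, against 0.07 over all genes. After centring, the median over all genes was -0.66, and it was -0.27 for macrophage and Kupffer cell, -0.33 for stellate cell, -0.65 for lymphocyte, -0.10 for neutrophil and -0.76 for cholangiocyte markers. No neutrophil marker lay above the array median on any array.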
